A study of Mus musculus with 18 samples.

Results

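Open chromatin was examined at 9 genes that encode transcription factors of the macrophage lineage, namely *Sfpi1* (the older symbol of *Spi1*, which encodes PU.1), *Cebpb*, *Irf8*, *Runx1*, *Maf*, *Zeb2*, *Mef2c*, *Klf4*, and *Bach1*. An open region was assigned to a gene when its midpoint lay in the gene body or within 50 kb of either end, a stretch called the window of the gene here. This rule took 130 of the 69499 open regions in the deposited list, or 0.187%, and no region fell in more than 1 window. The regions came from fast-ATAC-Seq, in which a transposase inserts sequencing adapters into accessible DNA, of liver macrophages (LMs) from male C57BL/6J mice fed a high-fat, high-sucrose diet (D12492i) for 4 weeks. The 18 libraries comprised 3 replicates of each of 3 genotypes (control, *Reverb*-hDKO, and *Reverb/Scap*-hTKO) at zeitgeber time 10 (ZT10) and at ZT22. All mice carried floxed alleles. Knockouts received an adeno-associated virus with Cre under the hepatocyte-specific TBG promoter, and controls received the same kind of virus with GFP, so *Rev-erb*α and *Rev-erb*β (hDKO), or these and *Scap* (hTKO), were targeted in hepatocytes and not in the LMs. LMs comprise resident Kupffer cells and macrophages derived from monocytes, and the libraries themselves are labelled as Kupffer cells. Whether a library pools animals is not given in the sources used here.

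The list holds positions and neither read counts nor scores nor the libraries in which a region was found, so the depth is unknown, and replicates, genotypes, and zeitgeber times could not be compared. The values below are therefore 1 map for all 18 libraries. Of the markers of the labelled cell type, 7 of 10 macrophage genes had an annotated start no more than 1000 bp from an open region, with *Csf1r* (1945 bp), *Vsig4* (20837 bp), and *Marco* (12643 bp) outside that distance. The starts of 4 of 5 hepatocyte genes, 5 of 5 sinusoidal endothelial genes, and 3 of 5 stellate cell genes were also open. Over all protein-coding genes the share was 57.0%, near those of the macrophage and stellate cell lists, so these short lists do not tell the labelled cells from others. A list without levels cannot show how much of each cell type the preparations held, and the part of other liver cells in the regions below was not tested.

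Macrophage identity is laid down by a small set of transcription factors that act in combination. PU.1, an ETS-family factor, can bind closed chromatin and opens enhancers together with C/EBP and RUNX partners, and IRF8 binds next to PU.1 at composite ETS-IRF sites. The other factors adjust the program. MAF and BACH1 are basic leucine zipper proteins with related sites, MEF2C is a MADS-box factor, and ZEB2 and KLF4 are zinc finger proteins. Genes of such lineage factors are often surrounded by several enhancers, many of which are known to be bound by the factors themselves.

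Regions of the 9 windows that hold letters matching the sites of these factors, or of AP-1, which is none of the 9, are shown first. From each window, the region of at most 300 bp that overlaps no annotated exon and has the most kinds of 10 lineage motifs is given, with ties decided by the wider region, as the plus strand of mm9 (NCBIM37), 5′ to 3′, with motif matches in capitals. The motifs, searched on both strands, were PU.1 (GAGGAAGT), ETS-IRF (GGAANNGAA), C/EBP (TTGCNNAA), RUNX (TGTGGTT), MAF (TGCTGAC), BACH (GCTGANTCA), AP-1 (TGACTCA), MEF2 (CTAAAAATA), KLF (GGGTGTGG), and ZEB (CAGGTG). MAF, BACH, and AP-1 share letters and can match at the same bases, as can PU.1 and ETS-IRF. A match describes the letters and is no evidence of binding. Matches are anywhere in a region unless the central window, the 0.151 kb around its midpoint, is named.
Sfpi1 chr2:90912392-90912542: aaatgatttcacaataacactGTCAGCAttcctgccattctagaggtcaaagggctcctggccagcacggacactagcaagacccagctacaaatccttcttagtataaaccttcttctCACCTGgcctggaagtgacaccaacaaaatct
Cebpb chr2:167513683-167513967: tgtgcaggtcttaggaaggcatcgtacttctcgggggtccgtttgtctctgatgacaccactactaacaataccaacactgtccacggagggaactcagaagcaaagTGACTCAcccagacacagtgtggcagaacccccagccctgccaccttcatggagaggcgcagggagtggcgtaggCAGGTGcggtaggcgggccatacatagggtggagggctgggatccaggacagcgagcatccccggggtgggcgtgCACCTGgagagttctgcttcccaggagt
Irf8 chr8:123240013-123240292: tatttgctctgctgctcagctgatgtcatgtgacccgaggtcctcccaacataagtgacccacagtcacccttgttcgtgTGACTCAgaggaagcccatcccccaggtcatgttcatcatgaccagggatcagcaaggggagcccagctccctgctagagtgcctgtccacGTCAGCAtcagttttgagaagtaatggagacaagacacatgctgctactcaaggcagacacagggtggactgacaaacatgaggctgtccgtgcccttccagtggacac
Runx1 chr16:92818854-92819004: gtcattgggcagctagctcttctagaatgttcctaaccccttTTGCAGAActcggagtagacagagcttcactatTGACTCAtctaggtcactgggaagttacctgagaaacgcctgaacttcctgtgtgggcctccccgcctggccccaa
Maf chr8:118243793-118244026: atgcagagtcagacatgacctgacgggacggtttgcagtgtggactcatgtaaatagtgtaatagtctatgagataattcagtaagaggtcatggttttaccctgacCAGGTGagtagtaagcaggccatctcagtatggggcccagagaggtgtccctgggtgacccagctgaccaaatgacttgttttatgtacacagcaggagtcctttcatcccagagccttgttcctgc
Zeb2 chr2:44811893-44812123: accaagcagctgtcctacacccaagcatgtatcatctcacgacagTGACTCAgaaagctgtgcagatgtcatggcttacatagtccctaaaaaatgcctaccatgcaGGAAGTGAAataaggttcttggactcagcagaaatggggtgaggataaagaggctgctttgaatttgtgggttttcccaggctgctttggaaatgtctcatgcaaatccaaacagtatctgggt
Mef2c chr13:83711263-83711461: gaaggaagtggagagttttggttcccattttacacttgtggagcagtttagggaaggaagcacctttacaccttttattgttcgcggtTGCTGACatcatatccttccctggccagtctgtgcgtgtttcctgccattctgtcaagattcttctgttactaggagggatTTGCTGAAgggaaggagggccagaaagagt
Klf4 chr4:55527649-55527887: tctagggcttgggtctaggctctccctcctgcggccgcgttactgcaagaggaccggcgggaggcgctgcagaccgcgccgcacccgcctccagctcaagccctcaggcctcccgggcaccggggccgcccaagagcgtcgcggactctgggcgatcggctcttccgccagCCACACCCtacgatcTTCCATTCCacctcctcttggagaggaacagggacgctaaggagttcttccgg
Bach1 chr16:87713327-87713570: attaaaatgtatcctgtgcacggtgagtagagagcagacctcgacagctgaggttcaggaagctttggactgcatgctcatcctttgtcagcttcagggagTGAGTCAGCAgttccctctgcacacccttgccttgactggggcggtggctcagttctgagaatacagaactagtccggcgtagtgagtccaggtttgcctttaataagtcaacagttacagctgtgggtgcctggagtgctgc

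In these regions, that of *Sfpi1* held a MAF and a ZEB match, that of *Cebpb* an AP-1 match and a pair of ZEB matches just upstream of the gene, and that of *Irf8* an AP-1 and a MAF match. The *Runx1* region held C/EBP and AP-1 matches, the *Maf* region a ZEB match, and the *Zeb2* region AP-1 and ETS-IRF matches. The *Mef2c* region held MAF and C/EBP matches and the *Klf4* region KLF and ETS-IRF matches. In the *Bach1* region, a single run of letters matched AP-1, BACH, and MAF at once. No other of the 130 regions had 3 kinds of lineage motif in its central window.

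A further 3 regions are printed because of a start or a motif discussed below, and were chosen after the values had been seen. They are the region nearest the first base of *Sfpi1* (C/EBP match in capitals), a region downstream of *Cebpb* with an E-box (CACGTG) and a RORE (TAGGTCA), and the intron region of *Mef2c* with the single MEF2 match, which also holds a RUNX match.
Sfpi1 chr2:90923170-90923437: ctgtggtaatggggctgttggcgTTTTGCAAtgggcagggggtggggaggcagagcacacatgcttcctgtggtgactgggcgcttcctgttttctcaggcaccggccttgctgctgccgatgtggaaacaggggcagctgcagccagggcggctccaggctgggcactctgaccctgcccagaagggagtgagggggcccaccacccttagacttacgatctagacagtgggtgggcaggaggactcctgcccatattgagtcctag
Cebpb chr2:167538835-167539051: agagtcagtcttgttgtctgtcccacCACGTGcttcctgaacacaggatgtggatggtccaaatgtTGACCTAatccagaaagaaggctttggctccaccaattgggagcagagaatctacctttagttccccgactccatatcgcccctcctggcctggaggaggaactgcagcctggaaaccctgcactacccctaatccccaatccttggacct
Mef2c chr13:83743254-83743404: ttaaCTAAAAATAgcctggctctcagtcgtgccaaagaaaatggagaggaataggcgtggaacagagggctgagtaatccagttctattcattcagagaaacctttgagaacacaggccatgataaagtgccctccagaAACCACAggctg

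The number of open regions ranged from 8 in the window of *Klf4* to 21 in that of *Cebpb*, with a median of 15. Windows differ in length because genes do, so the count was divided by the window length. The density was 20.7 open regions per 100 kb at *Cebpb*, 13.3 at *Irf8*, 11.2 at *Sfpi1*, 10.4 at *Bach1*, and 9.61 at *Maf*. It was 7.59 per 100 kb at *Klf4*, 6.84 at *Zeb2*, 5.55 at *Runx1*, and 3.79 at *Mef2c*. The longest genes, *Runx1*, *Mef2c*, and *Zeb2*, thus had the lowest densities although *Runx1* had the second highest count. The median of the 9 genes, 9.61 per 100 kb, compares with 4.73 over 22380 protein-coding genes treated in the same way (quartiles, 1.56 and 8.82), of which 3460 (15.5%) had no region. *Mef2c* alone lay below that median. The density of *Cebpb* was higher than that of 99.0% of protein-coding genes, that of *Irf8* higher than 90.4%, that of *Sfpi1* higher than 84.6%, and that of *Mef2c* higher than 42.9%. A gene with an open start has at least 1 region by definition, so the 12767 protein-coding genes with an open start were added as a background after the values had been seen. Their median was 6.87 per 100 kb (quartiles, 4.03 and 10.7), and 6 of the 9 genes lay above it. No test was made, since the list has no replicates and the 9 genes were chosen with earlier results known.

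**Figure D1:**
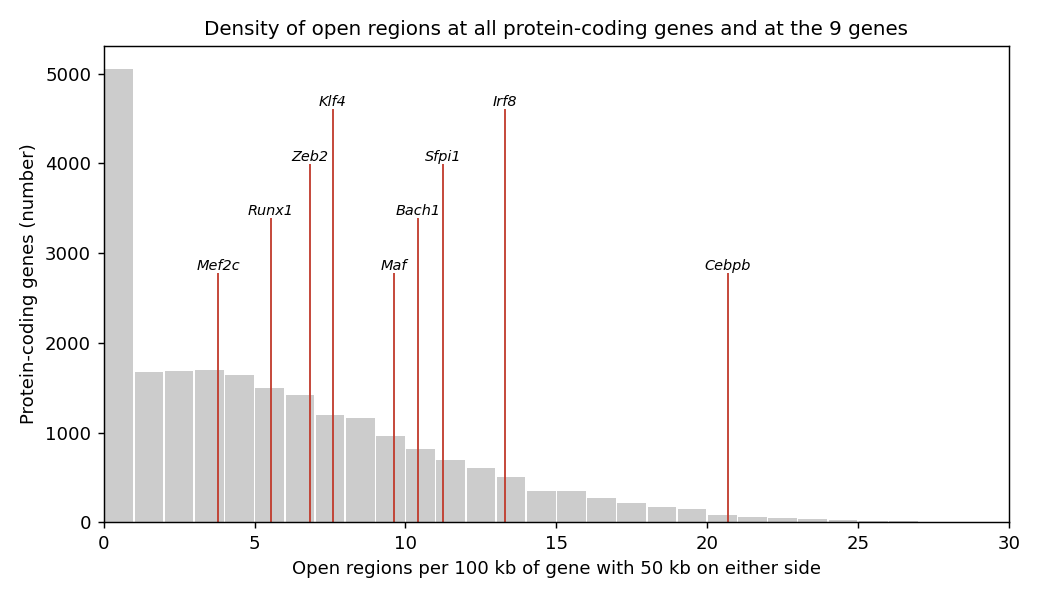
Histogram of open regions per 100 kb of window (gene body and 50 kb on either side) over protein-coding genes, with the 9 lineage transcription factor genes marked by lines whose height has no meaning (1 gene at 30 or more is not drawn). *Cebpb*, at 20.7 per 100 kb, is farthest to the right and *Mef2c*, at 3.79, lies below the median of all genes, 4.73.

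Each of the 9 genes had an annotated start no more than 1000 bp from an open region (an open start), compared with 57.0% of protein-coding genes. Of the 38 annotated starts of these genes, 33 (86.8%) were within 1000 bp of a region. That share was 51.5% over the 70064 starts of protein-coding genes. Of the 38, 17 lay inside a region, and the share of all starts that do so was not computed. Starts of a gene can share a region, as the 3 of *Bach1* do, and *Zeb2* alone has 10, so starts are not independent. The first base of the gene lay inside a region at *Irf8*, *Runx1*, *Zeb2*, and *Bach1*. It was 55 bp from a region at *Cebpb*, 72 bp at *Klf4*, 86 bp at *Maf*, and 623 bp at *Sfpi1*. *Mef2c* was apart from the others, with the nearest region 14069 bp from its first base, and counts as open because of an inner start.

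**Figure D2:**
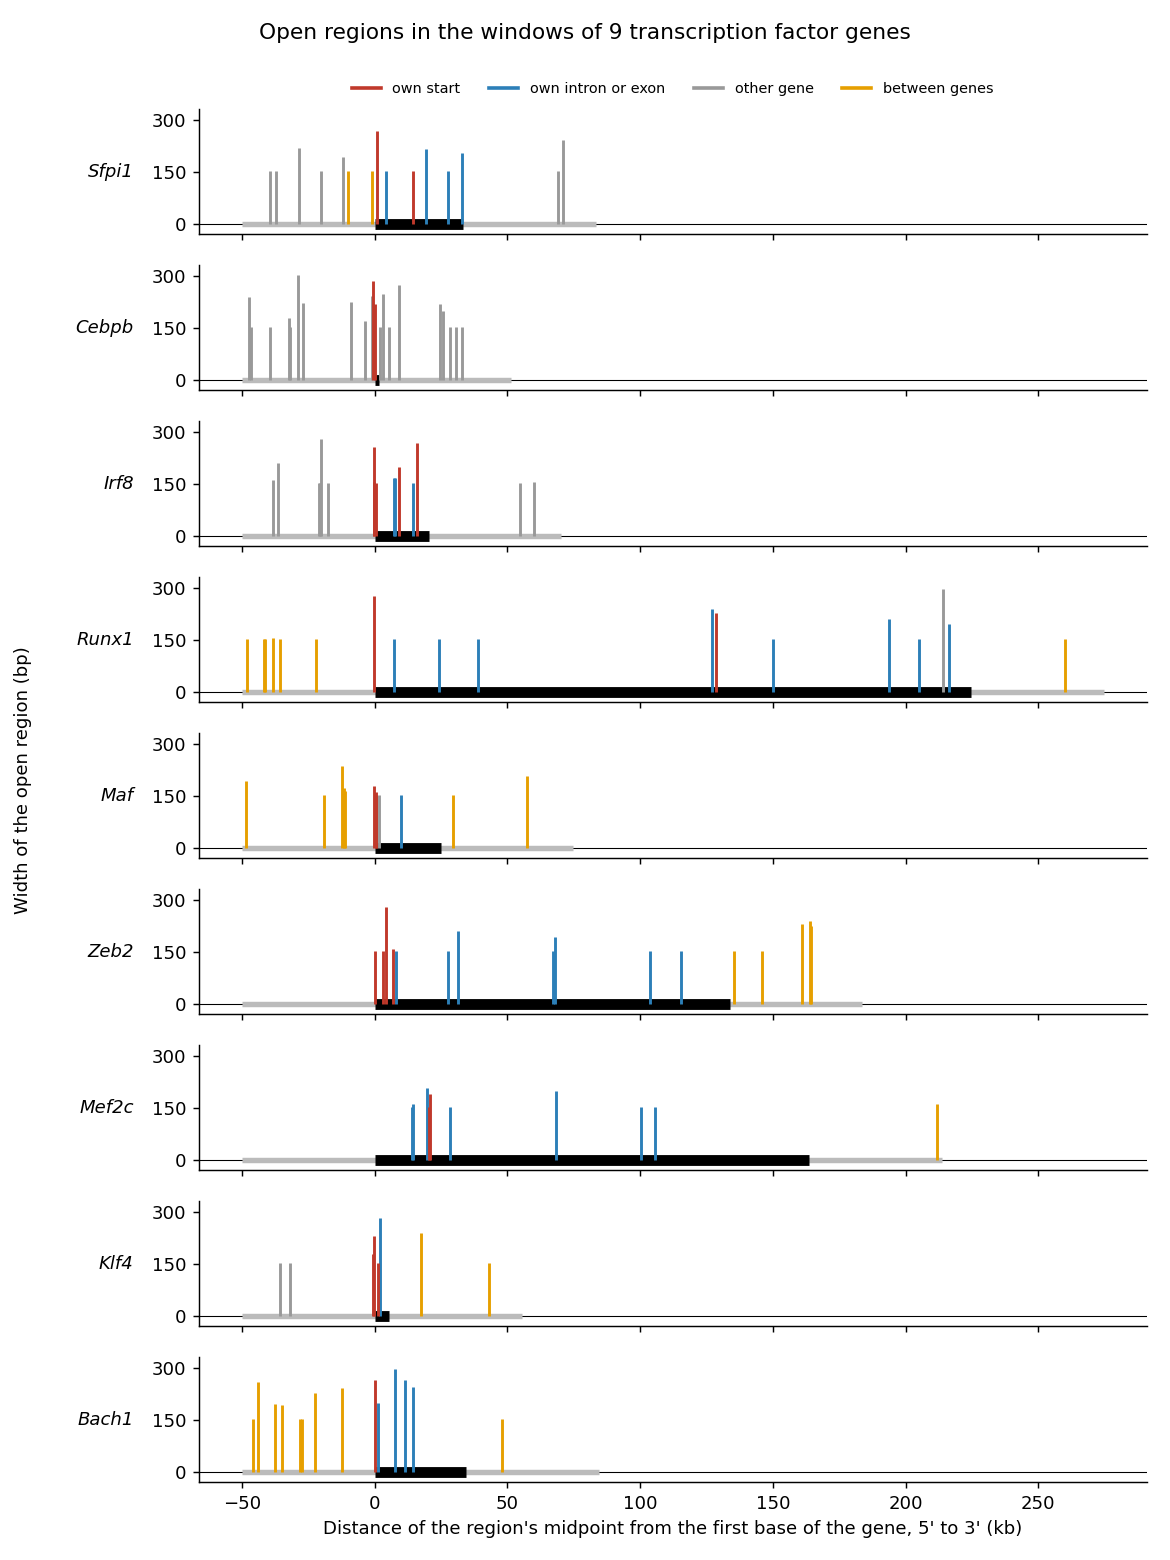
Open regions in the windows of the 9 genes, drawn 5′ to 3′. The x axis is the distance of a region's midpoint from the first base of the gene in kb, the height of a line is the width of the region in bp, the black bar is the gene, and the gray bar is the window. Regions of *Zeb2* and *Mef2c* lie in the gene and after it, with 1 and 0 regions before the first base, whereas those of *Cebpb* lie on either side of a gene of 1504 bp.

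*Sfpi1* (ENSMUSG00000002111.8, chr2:90922547-90955913, plus strand) encodes PU.1, without which macrophages do not form. Its window held 15 regions, 6 inside the gene, 7 upstream, and 2 downstream. The outer annotated start had its nearest region at chr2:90923170-90923437, which is 268 bp wide and the widest of the window. Of a pair of inner starts, that 13.7 kb farther on was 567 bp from a narrower region at chr2:90936820-90936970, and that 14.4 kb farther on lay inside it. Measured from the latter, the wide region was 13.6 kb upstream. Both regions held a C/EBP match. An upstream regulatory element is well known for this gene, and whether the wide region is that element was not tested. The introns and an exon near the end held 4 more regions, of which those at 27.8 kb and 32.9 kb from the first base had a RORE match. Of the 9 regions outside the gene, 7 lay at the starts or in the exons of *Rapsn*, *Gm13778*, *Psmc3*, *Slc39a13*, and *Madd*, and the other two, at 10.1 kb and 1.09 kb upstream, lay between genes. No region of the window held the PU.1 motif in its central window.

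*Cebpb* (ENSMUSG00000056501.3, chr2:167514415-167515918, plus strand) encodes C/EBPβ, a partner of PU.1 in macrophages that is also induced in inflammation and abundant in hepatocytes. It is the shortest of the 9 genes and had the most regions, with 1 inside, 11 upstream, and 9 downstream. Those at its own start were a 217 bp region at chr2:167514470-167514686 and a 285 bp region 0.59 kb upstream, the latter with the AP-1 match printed above. The widest region was at chr2:167485328-167485628, 28.9 kb upstream, and held an E-box and a RORE. The other 19 regions lay at starts or in introns of neighboring genes. *Tmem189*, which has 2 records on the opposite strand, held 10 of them, and the noncoding *A530013C23Rik*, which starts 2.26 kb downstream of the first base of *Cebpb*, held 9. The first base of a *Tmem189* record lies 0.907 kb past that of *Cebpb*, so the regions at the start of *Cebpb* lie in that record as well. Position does not show which of these genes a region acts on, and the high count of *Cebpb* rests on this shared ground.

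*Irf8* (ENSMUSG00000041515.3, chr8:123260258-123280594, plus strand) encodes a factor needed for monocytes and dendritic cells. Its window held 16 regions, 6 inside, 8 upstream, and 2 downstream. Of 7 annotated starts, 5 were open and 4 lay inside a region. These were 2 at the first base (257 bp region) and the inner starts 9.12 kb (199 bp) and 15.9 kb (266 bp) farther on. The widest region, of 280 bp, was 20.1 kb upstream at chr8:123240013-123240292, in a group of 4 regions between 17.6 kb and 21.0 kb upstream, and 3 of the 11 regions with MAF in the central window were at this gene. Downstream regions were at 54.6 kb and 60.1 kb from the first base. Enhancers far downstream of *Irf8* are known in myeloid cells, and whether these regions are those elements was not tested. The 8 regions outside the gene and its starts are annotated as intron of *Gm20388*, a gene model whose first base lies 825.5 kb upstream and which runs across *Irf8*, so the label says little of their place. The intron of *Irf8* held the PU.1 match of this window, at 14.5 kb.

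*Runx1* (ENSMUSG00000022952.9, chr16:92601712-92826311, minus strand) encodes a factor required for the first blood stem cells and active in macrophages later on, and is transcribed from a distal and a proximal promoter. Both were open. The distal start lay inside a 277 bp region at chr16:92826291-92826567, and the proximal start, 129 kb farther on, inside a 226 bp region at chr16:92697569-92697794. Their GC content differed, at 49.7% for the distal and 68.2% for the proximal region. A further pair of annotated starts was 1314 bp and 1674 bp from the proximal region. Between the promoters, regions of the commonest width (0.151 kb) lay at 7.38 kb, 24.3 kb, and 38.8 kb from the distal start. The first held C/EBP, AP-1, and RORE matches and each of the others held a MAF match. A wider region of 237 bp, with a ZEB match, also lay between the promoters, at 127 kb. An intronic enhancer active in blood stem cells is known between these promoters, and its identity with any of these regions was not tested. The widest region, of 297 bp, was at the start of *Gm16801*, a lincRNA inside the gene. Of the 18 regions of the window, 10 were inside *Runx1*, 7 upstream, and 1 downstream, and 4 held an AP-1 match.

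*Maf* (ENSMUSG00000055435.6, chr8:118206842-118231694, minus strand) encodes c-MAF, which restrains the self-renewal of mature macrophages. Its window held 12 regions, 4 inside, 6 upstream, and 2 downstream, of which 3 were at its own starts. The region nearest the first base was 177 bp wide, at chr8:118231780-118231956, and held a C/EBP match. The widest, of 234 bp, was 12.2 kb upstream, beside a pair of narrower regions at 11.1 kb and 11.6 kb, and no annotated gene lies there. The single MAF match was at the start of *Gm15655*, 1.76 kb into the gene.

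*Zeb2* (ENSMUSG00000026872.8, chr2:44839154-44972915, minus strand) encodes a repressor that keeps tissue macrophages, Kupffer cells among them, in their tissue-specific state. All of its 10 annotated starts were within 1000 bp of a region and 6 lay inside one. They spread over the first 7.02 kb of the gene and were accompanied by a region of the commonest width at the first base, the widest region of the window (279 bp, chr2:44968554-44968832) at 4.22 kb, and others at 3.20 kb and 6.93 kb. Of its 16 regions, 10 were inside the gene, 5 downstream, and 1 upstream, the latter being the region over the first base itself, so the 50 kb before the gene held no other. AP-1 was matched in 4 regions and the factor's own motif, ZEB, in 2. The downstream regions lay between genes, with 3 of them between 161 kb and 164 kb from the first base. The lincRNA *Gm13476* starts on the opposite strand 6.26 kb into *Zeb2*, near the region at 6.93 kb, which was counted for *Zeb2*.

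*Mef2c* (ENSMUSG00000005583.8, chr13:83643033-83806684, plus strand) encodes a factor known from muscle and nerve cells that is also active in microglia and myeloid precursors. The outer start, used by 4 annotated transcripts, was not open, and the start of a single shorter transcript, 20.9 kb farther on, lay inside a 188 bp region at chr13:83663864-83664051. The widest region, of 207 bp, was at 19.8 kb. Of 10 regions, 9 were inside the gene, 1 was downstream, and none was upstream. The stretches without any open region on either side of these 10 were 442 kb upstream and 507 kb downstream, and 1.23% and 1.03% of all gaps between neighboring regions in the genome were at least as long (median gap, 8443 bp). PU.1 was matched in intron regions at 14.5 kb, outside the central window, and at 105.6 kb. ETS-IRF was matched at 20.4 kb and 28.2 kb.

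*Klf4* (ENSMUSG00000003032.7, chr4:55540013-55545347, minus strand), a zinc finger factor of monocyte differentiation, had 8 regions, of which 3 were at its own starts and had GC contents of 74.2%, 72.8%, and 63.6%. The region nearest the first base was 229 bp wide, at chr4:55545419-55545647, and the widest, of 281 bp, lay in an exon 2.06 kb into the gene. A pair of regions upstream lay in introns of *Gm12511*, and a pair downstream, at 17.6 kb and 43.0 kb, lay between genes.

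*Bach1* (ENSMUSG00000025612.5, chr16:87699190-87733591, plus strand) encodes a repressor that is released by heme and controls heme oxygenase, of use to macrophages that take up red blood cells. A single 263 bp region at chr16:87699024-87699286 covered its 3 annotated starts and had a GC content of 77.5%. Of its 14 regions, 9 were upstream, 4 inside, and 1 downstream, and none lay in another gene. They were the widest of the 9 windows by their median of 212 bp, and the widest of them, of 295 bp, was at 7.48 kb in an intron. The BACH motif was matched at 14.3 kb, in the region printed above, and in another intron region near the start.

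Together, 52 of the 130 regions were inside the genes, 53 upstream, and 25 downstream. By annotation, 24 were at a start of the gene itself, 32 in its introns, and 3 in its exons, which left 71 in other genes or between genes. These were 10 at starts, 26 in introns, and 2 in exons of other genes, and 33 between genes. *Cebpb* and *Irf8* account for 24 of the 26 in introns of others. Over all classes, 44.6% of the regions were in introns (95% Wilson interval, 36.3% to 53.2%), an interval that lies above the share of 34.1% among the 69362 regions on chromosomes 1 to 19, X, and Y. The shares at starts (26.2%, against 29.4%), in exons (3.85%, against 3.60%), and between genes (25.4%, against 32.9%) had intervals that include the share of all regions. The intron share depends on neighbors. It was 38.5% (30.5% to 47.0%) when introns of *Gm20388* were not counted and 38.5% (29.9% to 47.9%) without the regions of *Cebpb*, and both intervals include 34.1%. The 34.1% of all regions was not recomputed for these settings. Both settings were added after the values had been seen. The intervals cover counting error only, and neighboring regions of a gene are not independent.

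**Figure D3:**
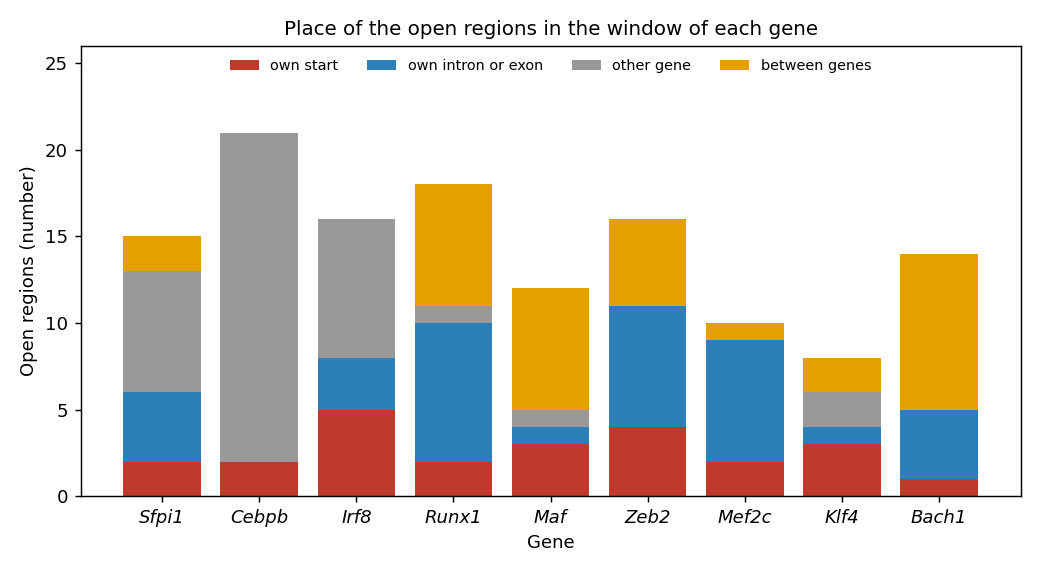
Number of open regions of each of the 9 windows at a start of the gene itself, in its introns or exons, in other genes, and between genes. Where the gene and another gene gave a region the same place, it is counted for the gene itself. Counted in this way, regions in other genes make up 19 of 21 at *Cebpb* and 8 of 16 at *Irf8*. There are none at *Zeb2*, inside which the lincRNA *Gm13476* starts, and none at *Mef2c* and *Bach1*.

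Lineage motifs were counted in the central window, which has the commonest width of a region, so that wide regions had no advantage. No kind was present in 57.7% of the 130 regions, compared with 63.6% of all regions. Away from starts these shares were closer, at 57.3% and 59.4%. C/EBP was the most frequent, in 15 regions (11.5%, against 8.82% of all regions), followed by AP-1 in 14 (10.8%; interval, 6.52% to 17.3%; 5.69% of all regions), MAF in 11 (8.46%; interval, 4.79% to 14.5%; 4.42%), and ZEB in 11 (8.46%, against 10.7%). RUNX and ETS-IRF were each matched in 5 (3.85%, against 3.89% and 4.80%), PU.1 and BACH each in 3 (2.31%, against 3.34% and 1.57%), and MEF2 and KLF each in 1 (0.769%, against 0.249% and 1.83%). Of 3 motifs of the clock and of sterol control, the E-box was in 10 (7.69%, against 5.01%), the RORE, to which REV-ERBs and RORs bind, in 7 (5.38%; interval, 2.63% to 10.7%; 2.05%), and the SRE (TCACNCCAC), which SREBPs bind, in 1 (0.769%, against 0.717%). For the RORE, only the letters TAGGTCA were searched, and the bases beside them were not examined. The intervals of AP-1, MAF, and RORE lay above the share of all regions. Among regions away from starts, the share of all such regions was inside the interval for AP-1 (11.5%, against 6.96%) and for MAF (9.38%, against 5.10%) and below it for RORE (6.25%; interval, 2.90% to 13.0%; 2.40%). Of the 14 AP-1 regions, *Runx1* and *Zeb2* held 4 each, and *Sfpi1*, *Maf*, and *Mef2c* held none. Of the 7 RORE regions, 3 were at *Cebpb*, at a start or in introns of neighboring genes. The AP-1 interval without *Runx1* and *Zeb2* and the RORE interval without *Cebpb* were not computed. With 13 motifs set side by side and no test, the differences above are a description. MAF and AP-1 share letters, and 2 windows held both.

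**Figure D4:**
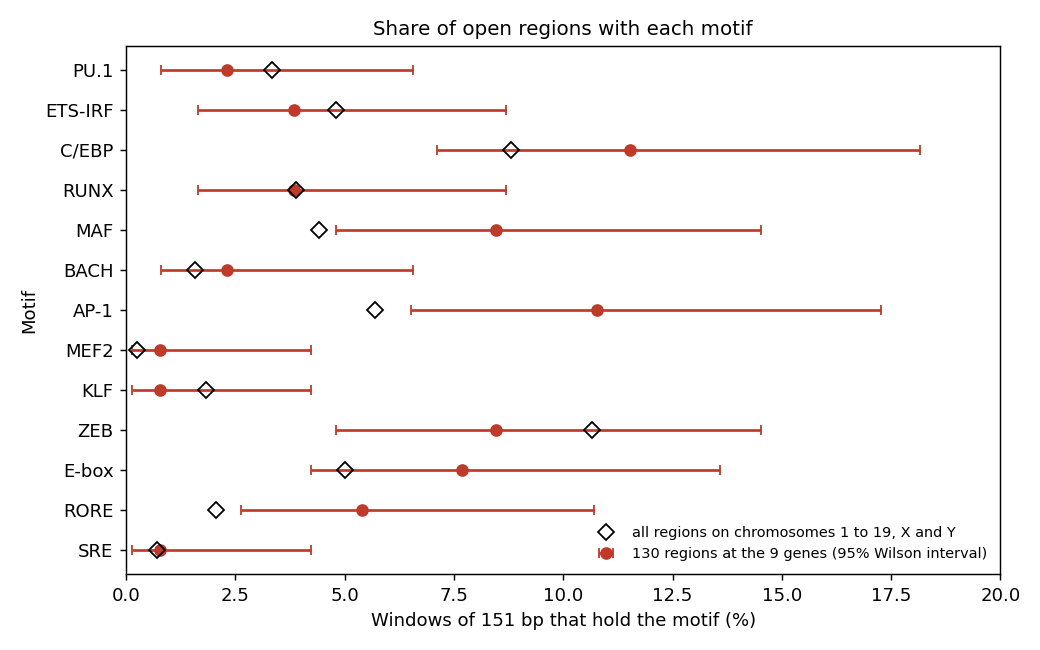
Share of regions with each of 13 motifs in a central window of the commonest region width, for the 130 regions of the 9 genes (points, with 95% Wilson intervals) and for all regions (open diamonds). The diamond lies below the interval for MAF, AP-1, and RORE.

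By central windows, the motif of a factor was matched at its own gene for 6 of the 9 genes, in 1 or 2 regions each. These were C/EBP in 2 regions of *Cebpb*, MAF in 1 of *Maf*, ZEB in 2 of *Zeb2*, MEF2 in 1 of *Mef2c*, KLF in 1 of *Klf4*, and BACH in 2 of *Bach1*. For *Cebpb* (9.52% of its regions) and *Zeb2* (12.5%) this was near the share of all regions, 8.82% and 10.7%, and the counts are too small to set any of the 6 apart. The MEF2 and KLF matches were the only ones of these motifs in the 130 regions, and BACH had its remaining match at *Zeb2*. PU.1 at *Sfpi1*, ETS-IRF at *Irf8*, and RUNX at *Runx1* had no match, and the PU.1 matches were at *Irf8*, *Runx1*, and *Mef2c*. RORE was matched in 3 regions of *Cebpb*, 2 of *Sfpi1*, and 1 each of *Runx1* and *Klf4*. At *Cebpb*, the region 28.9 kb upstream also held an E-box in its central window. The region printed above, 24.5 kb downstream, has its E-box outside the central window.

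Regions of the 9 genes were as wide as others. Their median width was 158.5 bp (mean ± SD, 186.3 ± 44.6 bp, n = 130), compared with 160 bp over all regions (186.2 ± 48.5 bp). The commonest width was found for 61 (46.9%, against 46.5%), and none exceeded 302 bp, or 2 times that width (2.74% of all regions). At starts, the median was 190 bp (188 bp for all regions at starts), and away from starts it was the commonest width in both sets. The median GC content was 59.9% at starts, compared with 61.6%, and 53.0% away from starts, compared with 51.0%. GC content at starts ran from 37.1% to 77.5%.

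**Figure D5:**
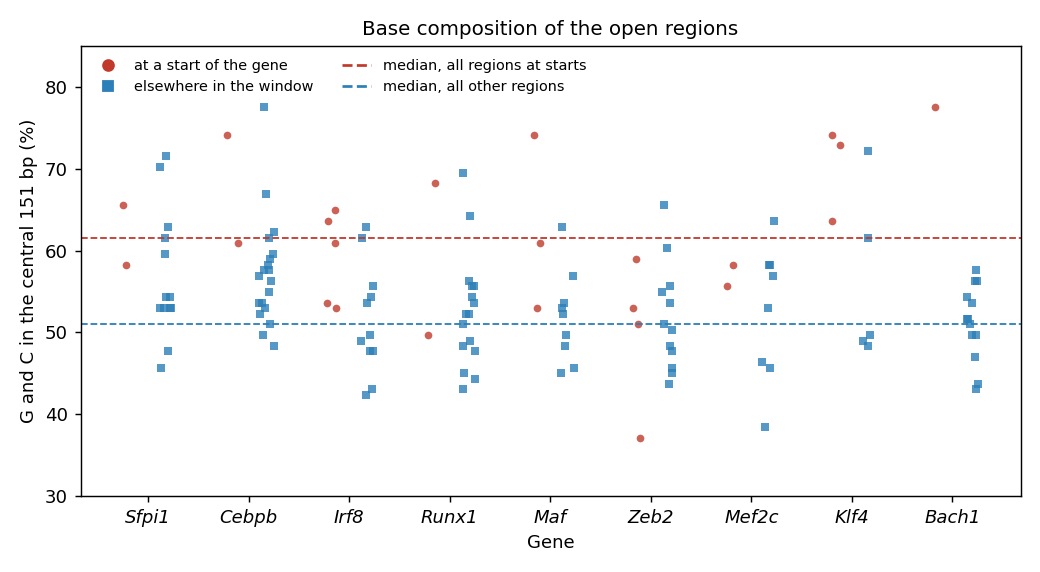
GC content (percent, in a central window of the commonest region width) of the open regions of the 9 genes, by gene. Regions at the gene's own starts and other regions, which include those at starts of other genes, are drawn in different colors. Dashed lines are the medians of all regions at starts and of all regions away from starts. The start regions of *Cebpb*, *Maf*, and *Klf4* each reach 74.2% and those of *Bach1* 77.5%.

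The rule has an edge at 50 kb. The nearest region outside it was 50.5 bp beyond the upstream edge of *Irf8*, and the nearest inside were 1.51 kb from the upstream edge of *Maf* and 1.83 kb from that of *Runx1*. At *Mef2c* the nearest regions outside were 378.3 kb and 505.2 kb beyond the edges.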

How the data were processed

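Fast-ATAC-Seq was performed on isolated LMs. Adapter-trimmed reads were mapped by the authors with Bowtie (mm9), alignments of replicates were pooled, and peaks were called on the pools, so a region need not be open in each library. The Kundaje laboratory's pipeline was applied and HOMER is named for read counts. The peak caller within the pipeline and its threshold are not given in the sources used here. The deposited list holds region positions and no count, signal, or score, so the libraries could not be compared and no test was made. Starts, counted from 0 in the list, are given from 1.

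Regions were assigned to GENCODE vM1 genes by midpoint, and a start was called open with a region within 1000 bp. Where the gene of a window and another gene gave a region the same place (start, exon, or intron), the gene of the window was named. Motifs were searched as exact letters in NCBIM37. Shares have 95% Wilson intervals, which cover counting error only. For each gene, the region nearest the first base, the widest region, and regions at alternative starts were named. Other flanks, distances, widths, and joining within 500 bp were tried. The genes and lists were chosen with earlier results of these data known. The counting of regions in a window, the distance to a region, and the motif search were tested on simulated data. The sorting of regions into starts, exons, introns, and between genes was not. Analyses were run in Python (3.11.15) with NumPy (2.4.6), and figures were drawn with matplotlib (3.10.9).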

Additional observations from a re-analysis of the deposited data

How the results depend on the processing

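A flank of 10 kb in place of 50 kb left 71 of the 130 regions. Counting only regions wider than the commonest width left 69, with 27 in place of 52 inside the genes, and lowered the median density to 4.50 per 100 kb, compared with 2.65 over protein-coding genes. The other settings of the total, the density, the open starts, and the regions inside genes, 12 in all, moved their value by at most 1.5 times. These include a flank of 100 kb (191 regions; median, 6.82 per 100 kb, against 4.70), joining of regions at most 500 bp apart (112 regions; 6.65, against 3.98), and a region that overlaps a start itself (6 of 9 genes, against 38.9% of protein-coding genes). With the first base of the gene alone, 8 of 9 genes were open, all but *Mef2c* (53.5% of protein-coding genes). With the 10 kb flank, the density of *Cebpb* went from 20.7 to 41.9 and that of *Klf4* from 7.59 to 15.8 per 100 kb, which put *Klf4* above *Sfpi1* (13.1), *Maf* (13.4), and *Bach1* (9.19). Of the settings per gene, per motif, and of the intron share, 86 stayed within 1.5 times the value (for shares, within its interval) and 32 did not. No paired analysis was possible because values of single libraries are not in the deposited list.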

Other observations

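Relatives of the 9 factors had an open start in 15 of 19 cases, compared with 57.0% of protein-coding genes. Their median density was 7.65 per 100 kb, compared with 4.73 over protein-coding genes and 6.87 over those with an open start. The exceptions were *Spib*, *Cebpe*, *Runx2*, and *Nrl*, with the nearest region at 6626, 2033, 24439, and 15184 bp. *Irf1*, an interferon-induced relative of *Irf8*, had 23.1 regions per 100 kb, and *Cebpa*, the hepatocyte and myeloid relative of *Cebpb*, had 18.5. *Spic*, which is induced by heme in macrophages, had 3.63 per 100 kb. All 3 of these had an open start.

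Among factors of other lineages, 4 of 6 lymphoid and erythroid genes had an open start, with *Gata1* and *Tbx21* outside 1000 bp, and 1 of 8 muscle and nerve genes, *Pax6* at 512 bp, compared with 57.0% of protein-coding genes.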
